A study of Mus musculus with 6 samples.

Results

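The polyamine synthesis genes described here are Odc1, Amd1, Srm and Sms, which build the polyamines, Sat1, which starts their breakdown, and Oaz1 and Azin1, which set the amount of the ODC1 enzyme. They were found on the arrays as probes named by a RefSeq transcript accession of one of these 7 genes. This gave 13 of 55681 distinct probes, for 6 of the 7 genes. No probe carried an accession of Amd1. The probes nearest to it were 3 named by the accession of Amd2, a paralog, and their values are given apart. The samples were J1 mouse embryonic stem cells, a line of strain 129S4/SvJae derived from the inner cell mass, adapted to gelatin and grown in serum replacement medium with 1000 U/mL LIF, the cytokine leukemia inhibitory factor. Of these, 3 samples had received 1 µM SC1 for 6 h and 3 had received DMSO, the solvent, for 6 h. All samples come from 1 cell line, and SC1 is known as pluripotin, reported to inhibit ERK1 and RasGAP. The comparison asked which RNAs changed with SC1.

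Polyamines are small positively charged molecules that bind RNA and DNA and that growing cells need. Ornithine decarboxylase, the product of Odc1, makes putrescine from ornithine. Adenosylmethionine decarboxylase, the product of Amd1, supplies the aminopropyl groups that spermidine synthase (Srm) and spermine synthase (Sms) add to make spermidine and spermine. Antizyme (Oaz1) is made when polyamines are plentiful and sends ornithine decarboxylase to the proteasome, and the antizyme inhibitor (Azin1), a relative of the enzyme without its activity, binds antizyme instead. In mouse embryonic stem cells the pathway is known to bear on self-renewal, with Amd1 and Odc1 among its studied genes.

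After SC1, the messenger RNAs of 3 of the 4 enzymes that build polyamines, Odc1, Srm and Sms, were lower. The remaining one, Amd1, was not measured by its own accession, and Sat1, Oaz1 and Azin1 did not pass the test. Srm fell by 0.35 on the log2 scale (SE 0.0508), Odc1 fell by 0.35 (SE 0.04) and Sms fell by 0.29 (SE 0.0678), with 3 arrays in each group. In linear terms these were decreases of 21.7%, 21.3% and 18.1%. The 3 Amd2 probes fell as well. Of the 6 measured members 3 fell, 0 rose and 3 did not pass at a Benjamini-Hochberg adjusted p under 0.05 (limma). Over all 25421 genes and intervals tested 38.4% changed, with 20.2% lower and 18.1% higher, so the number of members that changed at all is close to the background. The median log2 fold change was -0.16 over the 6 members and -0.0052 over all genes tested. Among all called genes 47.3% were higher with SC1, and 57.9% were when normexp background correction came before the 75th percentile scaling. The changes of the members were small beside those of Dusp6, a phosphatase gene induced by ERK signalling, which fell 31.7-fold, and of Myc, a transcription factor gene whose product is known to bind the Odc1 gene in mammalian cells, which fell 23.4-fold.

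All 13 member probes were well above background on all 6 arrays. In what follows a signal is the scanner's processed intensity after division by the array's 75th percentile, brought back to the common scale of the 6 arrays. Signals of different probes cannot be set against each other, since probes differ in how well they bind. The 75th percentile of the arrays was 443.3 to 493.3 with SC1 and 532.2 to 539 with DMSO. Between 63.2% and 65.1% of probes were well above background with SC1, and between 65.03% and 65.59% with DMSO. No spot was saturated. Marker lists of cell types are given as summed signals, which the brightest probes dominate, with the calls of their genes. Over all genes tested 18.1% rose and 20.2% fell. The 10 markers of embryonic stem cells were above background on every array, and their sum was 346400 to 365000 with SC1 and 322600 to 335800 with DMSO, while 2 of them rose, 4 fell and 4 did not pass. The 6 trophoblast markers summed to 16880 to 17900 with SC1 and 7252 to 7569 with DMSO. Of these Tfap2c, Krt8 and Krt18 rose, and Elf5 and Hand1 were above background on no array. Cdx2 fell with a wide error (log2 fold change -1.49, SE 0.457, adjusted p = 0.0459 by limma). In this list 4 markers were above background on all DMSO arrays, but 3 on all SC1 arrays. The 6 primitive endoderm markers, all above background on every array, summed to 10470 to 10620 with SC1 and 6346 to 6967 with DMSO, and 3 rose, 0 fell and 3 did not pass. The 5 neural markers summed to 4870 to 5231 with SC1 and 3444 to 3497 with DMSO. Of these Tubb3 rose, Pax6 and Sox1 fell, Nes did not pass, and Neurog2 was above background on no array. The 8 fibroblast markers summed to 21800 to 24270 with SC1 and 22610 to 23550 with DMSO. Of these Dcn, Col1a1 and Col3a1 rose, Thy1 fell, 2 did not pass, and Lum and Postn were above background on no array. The genes of these lists named here were chosen after their values were seen. The part of other cell types in the results was not tested. Arrays measure RNA per amount of total RNA, so fewer cells that express a gene and less RNA per cell cannot be told apart.

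The stretches before the start sites of Odc1, Sms and Oaz1 are shown as examples. Odc1 and Sms fell and Oaz1 did not pass, and RefSeq gives a promoter window for each. Sat1, which did not pass either, and Amd1 also had a window. Of the 7 listed genes 5 had a window in the RefSeq table (GRCm38.p6), and Srm and Azin1 had none there. Each sequence is the 250 bases before the annotated start, read 5′ to 3′ on the gene's strand. Capitals mark matches on either strand to the E-box (CACGTG), the GC box (GGGCGG), the TATA box (TATAAA) and the CCAAT box (CCAAT), none of which overlapped another here.
Odc1, chr12:17544623-17544872, plus strand: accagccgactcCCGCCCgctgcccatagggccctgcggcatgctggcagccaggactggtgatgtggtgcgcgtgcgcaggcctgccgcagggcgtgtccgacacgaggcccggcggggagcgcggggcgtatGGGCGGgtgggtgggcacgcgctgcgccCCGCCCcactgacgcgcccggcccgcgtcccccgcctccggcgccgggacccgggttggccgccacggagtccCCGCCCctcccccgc
Sms, chrX:157492288-157492537, minus strand: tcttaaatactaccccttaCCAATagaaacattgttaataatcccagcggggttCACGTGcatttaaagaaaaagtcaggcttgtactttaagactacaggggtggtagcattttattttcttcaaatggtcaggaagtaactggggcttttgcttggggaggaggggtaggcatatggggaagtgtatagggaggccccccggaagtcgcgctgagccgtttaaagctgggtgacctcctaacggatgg
Oaz1, chr10:80826406-80826655, plus strand: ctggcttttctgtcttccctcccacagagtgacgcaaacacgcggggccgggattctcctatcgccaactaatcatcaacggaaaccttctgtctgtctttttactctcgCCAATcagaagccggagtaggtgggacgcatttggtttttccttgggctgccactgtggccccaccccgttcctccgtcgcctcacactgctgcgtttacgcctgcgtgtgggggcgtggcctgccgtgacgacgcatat

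The Odc1 window was 80% G and C and held 4 GC boxes, at 238, 116, 88 and 15 bases before the start. The Sms window shown was 47.2% G and C and held 1 E-box, 196 bases before the start, and 1 CCAAT box. The other Sms start in the table had 4 GC boxes, at 176, 172, 168 and 128 bases before the start, the first 3 of them overlapping, and no E-box. The Oaz1 window held 1 CCAAT box, 140 bases before the start. Of the windows not shown, that of Sat1 held 2 GC boxes, at 72 and 6 bases before the start. That of Amd1 held 1 GC box, at 74 bases. Of 32851 windows of the same length 6.02% held an E-box, 32.7% a GC box, 12.4% a TATA box and 33.8% a CCAAT box. The E-box is the sequence that MYC and MAX bind, and no match in the Odc1 window says only that these letters are not within it.

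Odc1 encodes the first enzyme of the pathway, and all 3 of its probes fell. The brightest probe had signals of 42180, 42990 and 42790 on the SC1 arrays, against 55000, 54990 and 52630 on the DMSO arrays. The 3 SC1 arrays were close to each other and all below every DMSO array. The log2 fold change was -0.35 (95% interval -0.44 to -0.25) with an adjusted p of 0.00134 by limma. The second probe had 4457, 4667 and 4096 on the SC1 arrays, against 5226, 5530 and 5727 on the DMSO arrays. The dimmest had 1690, 1730 and 1729 on the SC1 arrays, against 2161, 2276 and 2489 on the DMSO arrays. Neither of them overlapped between the groups, and the log2 fold changes of the 3 probes ran from -0.43 to -0.32. When the arrays were scaled to 8 spike-in probes, RNA controls added in labelling, Odc1 had -0.39 and the call was lost (adjusted p = 0.0705).

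Amd1, whose product supplies the aminopropyl donor, could not be read by its own accession. Amd2 is a separate gene in the RefSeq table, which also lists Amd1 among its older names, and its probes were the only ones named for either gene. In the RefSeq windows Amd1 and Amd2 shared an identical run of 48 bases after their start sites. In Amd1 it reached the window's end, 50 bases after the start, so the shared stretch may be longer. The array files used here give no probe sequences, so which of the genes the Amd2 probes bound was not tested, and the same table lists further Amd pseudogenes. The brightest Amd2 probe had signals of 18180, 17770 and 17890 on the SC1 arrays, against 22410, 21660 and 21400 on the DMSO arrays. Its log2 fold change was -0.28 (SE 0.0398, adjusted p = 0.00286 by limma). The second probe had 3915, 3657 and 4091 on the SC1 arrays, against 5091, 5048 and 4723 on the DMSO arrays. The dimmest had 2463, 2429 and 2452 on the SC1 arrays, against 3759, 3666 and 3624 on the DMSO arrays. The groups overlapped on none of the 3 probes, but the size differed among them, from -0.59 on the dimmest to -0.28 on the brightest. That probe had -0.32 with an adjusted p of 0.151 once arrays were scaled to the spike-ins, and an adjusted p of 0.0684 for SC1 replicate 1 alone against DMSO.

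Srm encodes spermidine synthase, and both of its probes fell. The brighter one had signals of 14380, 15050 and 14480 on the SC1 arrays, against 19620, 17850 and 18680 on the DMSO arrays. The dimmer one had 9810, 9239 and 9950 on the SC1 arrays, against 12600, 12450 and 13070 on the DMSO arrays. All SC1 values were below all DMSO values on both probes. The log2 fold changes were -0.35 on the brighter probe (95% interval -0.48 to -0.23, adjusted p = 0.00303 by limma) and -0.40 on the dimmer. Scaled to the spike-ins, Srm had -0.39 with an adjusted p of 0.0633.

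Sms encodes spermine synthase, and its 3 probes also fell. The brightest had signals of 5483, 4869 and 5556 on the SC1 arrays, against 6249, 6359 and 6791 on the DMSO arrays. The second had 1659, 1845 and 1627 on the SC1 arrays, against 2725, 2423 and 2530 on the DMSO arrays. The dimmest had 1576, 1282 and 1432 on the SC1 arrays, against 1944, 1677 and 1874 on the DMSO arrays. The groups did not overlap on any of them, and SC1 replicate 2 was the lowest on the brightest and dimmest probes but the highest SC1 array on the other. The log2 fold changes were -0.29, -0.58 and -0.36 in this order. The call on the brightest probe (adjusted p = 0.0191 by limma) was the least steady of the 3 enzymes: the adjusted p was 0.0512 without DMSO replicate 2, 0.0635 without DMSO replicate 3 and 0.155 with spike-in scaling, where the log2 fold change was -0.33.

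**Figure D1:**
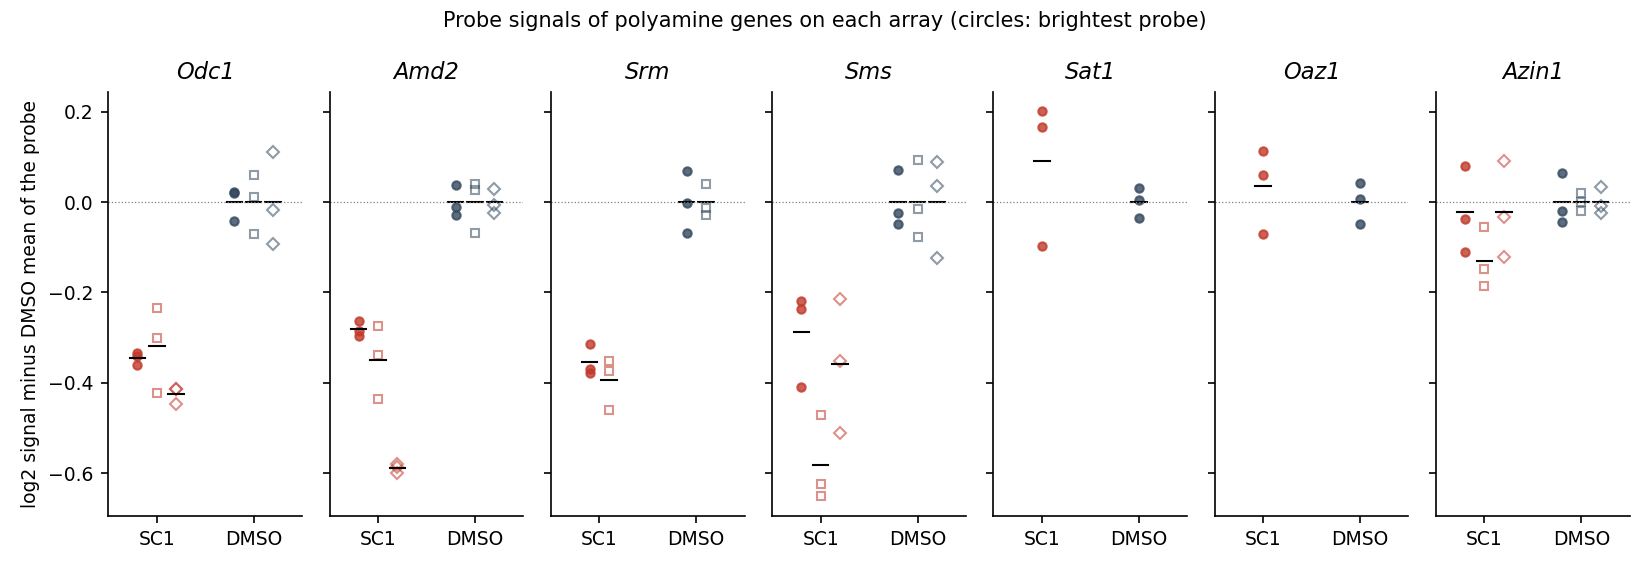
Signal of each probe of 6 members and of Amd2 on each array, as the log2 value minus the probe's mean over the 3 DMSO arrays, with SC1 arrays on the left and DMSO arrays on the right of each panel. Filled circles are the brightest probe, open squares and diamonds the other probes, and black bars the group means. All SC1 points of Odc1, Amd2, Srm and Sms lie below the DMSO points of the same probe, while the groups of Sat1 and Oaz1 overlap.

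Sat1, which encodes the acetyltransferase that marks spermidine and spermine for breakdown and export, had signals of 1413, 1177 and 1446 on the SC1 arrays, against 1261, 1286 and 1228 on the DMSO arrays. Both SC1 replicates 1 and 3 were above all DMSO arrays and SC1 replicate 2 was below them. The log2 fold change was 0.091 (95% interval -0.12 to 0.30, adjusted p = 0.459 by limma). Without SC1 replicate 2 it was 0.18 with an adjusted p of 0.0373, so this 1 array decided the call. Sat1 had 1 probe on the array.

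Oaz1, the antizyme gene, had signals of 58080, 51140 and 56000 on the SC1 arrays, against 55260, 53920 and 51940 on the DMSO arrays. The groups overlapped, and SC1 replicate 2 was the lowest of the 6 arrays. The log2 fold change was 0.035 (95% interval -0.11 to 0.18, adjusted p = 0.696 by limma), and a change as large as that of Odc1 lay outside the interval. RefSeq lists a transcribed pseudogene, Oaz1-ps, and for Sms a pseudogene Sms-ps, and their share of these signals was not tested.

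Azin1, the antizyme inhibitor gene, had 3 probes and none of them passed. The brightest had signals of 4978, 5678 and 5240 on the SC1 arrays, against 5211, 5304 and 5617 on the DMSO arrays. The second had 2613, 2545 and 2786 on the SC1 arrays, against 2855, 2933 and 2896 on the DMSO arrays. Here the groups did not overlap, with a log2 fold change of -0.13 and an adjusted p of 0.0953 over all probes (limma). The dimmest probe read 147, 134.8 and 126.8 on the SC1 arrays, against 141.3, 135.7 and 137.1 on the DMSO arrays. On the brightest probe the log2 fold change was -0.023 (95% interval -0.18 to 0.13, adjusted p = 0.811).

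Counted by probe, 8 of the 13 member probes fell, 0 rose and 5 did not pass, while 36.3% of all 35288 probes tested changed and 19.5% fell. The 8 are every probe of Odc1, Srm and Sms and none of Sat1, Oaz1 or Azin1. The groups did not overlap on 9 of the 13 probes, several of which belong to the same gene. The share over all probes was not counted, so this number has no background to be set against. For genes read by their brightest probe the groups did not overlap in 3 of 6 members, against 52.1% of all genes tested.

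Whether Odc1 moved differently from Oaz1, Azin1 and Sat1, and Srm from Sms, was tested on differences within each array, which do not depend on how an array is scaled by a constant. The log2 difference of Odc1 minus Oaz1 changed by -0.38 with SC1 (SE 0.0628). Relative to the DMSO mean it was -0.48 to -0.26 on the SC1 arrays and -0.020 to 0.015 on the DMSO arrays. Odc1 minus Azin1 had a difference of -0.32 (SE 0.0716), with -0.41 to -0.25 on the SC1 arrays and -0.11 to 0.066 on the DMSO arrays. Odc1 minus Sat1 had a difference of -0.44 (SE 0.0998), with -0.54 to -0.24 on the SC1 arrays and -0.010 to 0.018 on the DMSO arrays. In these 3 comparisons the groups did not overlap, and the exact two-sided permutation p was 0.1, the smallest that 3 arrays against 3 allow (adjusted p = 0.133 over the 4 pairs tested). The fourth pair, Srm minus Sms, had a difference of -0.066 (SE 0.1, exact permutation p = 0.5), and its groups overlapped. None of the 4 could reach 0.05.

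**Figure D2:**
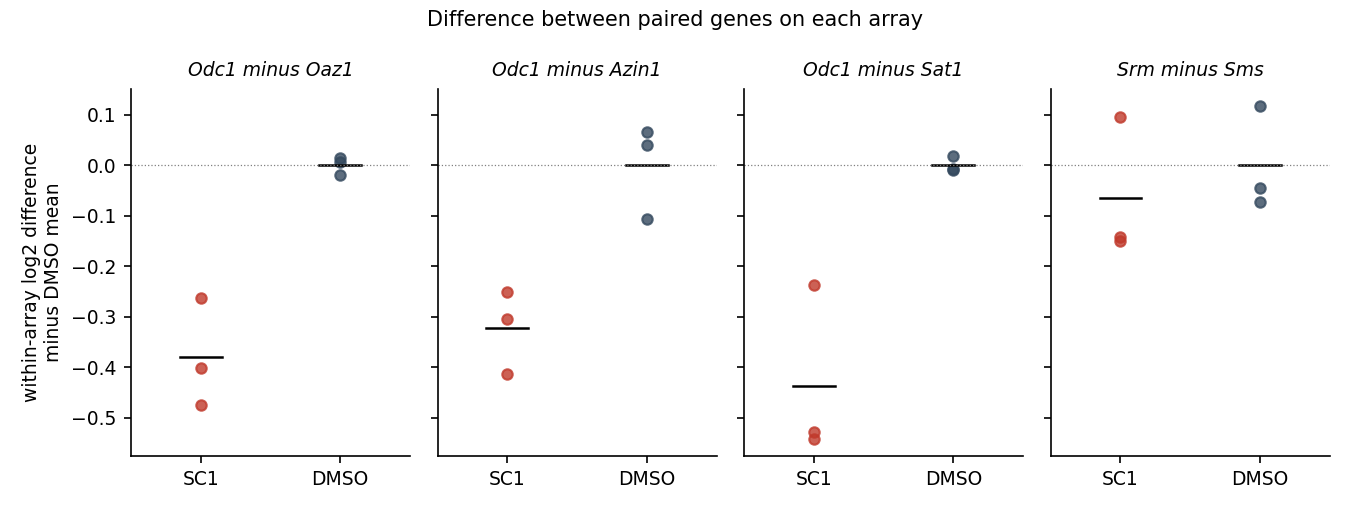
Log2 difference between the paired genes named above each panel on each array, minus its mean over the 3 DMSO arrays, with SC1 arrays on the left, DMSO arrays on the right and bars at the group means. The SC1 arrays lie below all DMSO arrays for Odc1 against Oaz1, Azin1 and Sat1, and overlap them for Srm against Sms.

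All 6 arrays lay on 1 slide, and their position numbers put the 3 DMSO arrays and SC1 replicate 1 in one section and SC1 replicates 2 and 3 in another. With the section as a block the log2 fold change was -0.36 for Odc1 (adjusted p = 0.0176), -0.38 for Srm (adjusted p = 0.0284), -0.24 for Sms (adjusted p = 0.164) and -0.26 for Amd2 (adjusted p = 0.0401). The other section held SC1 arrays only and adds nothing to these log2 fold changes. By construction they equal those within the shared section, SC1 replicate 1 against the 3 DMSO arrays. They therefore rest on 1 SC1 array, which is assumed to vary as the others do. With the same block Sat1 had 0.17, Oaz1 0.11 and Azin1 -0.11, and none of these passed.

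**Figure D3:**
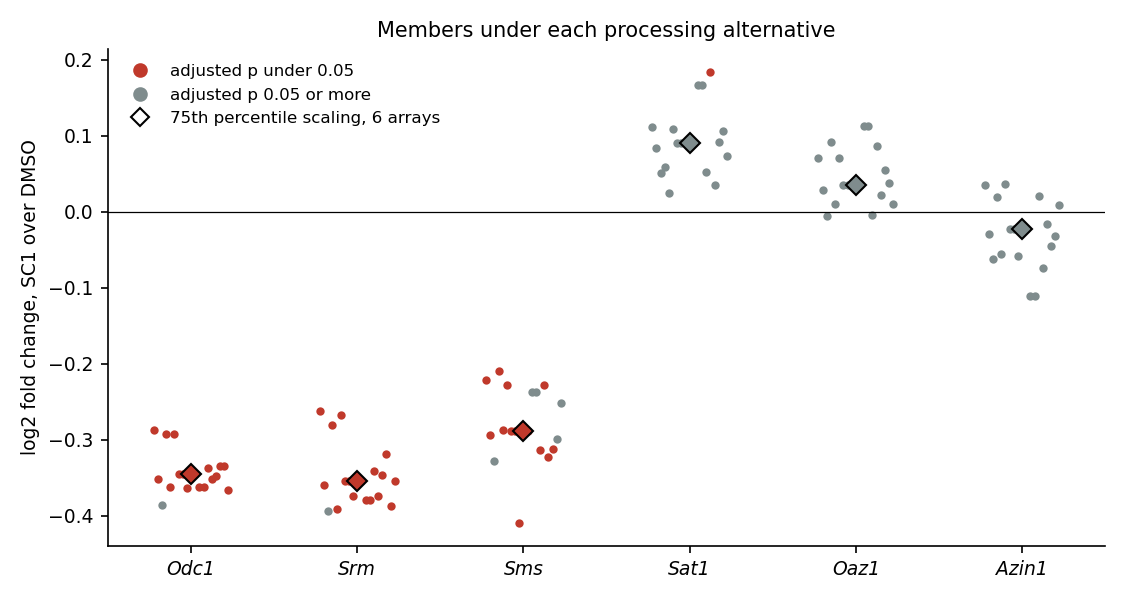
Log2 fold change of each measured member, SC1 over DMSO, under 75th percentile scaling of all 6 arrays (diamonds) and under each of 19 processing alternatives (circles), coloured by whether the limma adjusted p was under 0.05. Odc1, Srm and Sms stay below 0 in all of them, from -0.39 to -0.29 for Odc1, and Oaz1 and Azin1 lie on both sides of 0. Changing the filter, testing every probe or blocking by replicate leaves the log2 fold change as it was by construction. The slide section as a block and the within-section comparison give the same value.

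The wider pathway was read from a list of 33 further genes, Amd2 among them, that supply, regulate, degrade, carry or use polyamines. Of these 28 were tested, and 5 rose, 9 fell and 14 did not pass, so 50% changed, against 38.4% of all genes tested, of which 18.1% were higher and 20.2% lower. The median log2 fold change of the list was -0.049. With quantile normalization 8 rose and 7 fell, so the split between directions depended on the scaling. With spike-in scaling 2 rose and 2 fell, and within the shared slide section, with 1 SC1 array, 4 rose and 2 fell.

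Among the other antizyme family genes Azin2, a second antizyme inhibitor gene, rose by 0.29 (SE 0.0431, adjusted p = 0.00342), and its dimmer probe had 0.12 and did not pass. With spike-in scaling Azin2 had 0.25 (adjusted p = 0.293), and within the shared slide section 0.27 (adjusted p = 0.0719). Oaz2, a second antizyme gene named here after its values were seen, had -0.27 on its brightest probe (adjusted p = 0.0511) and -0.51 on the other, which passed over all probes (adjusted p = 0.0091, limma). Oaz3, the antizyme of male germ cells, was above background on no array.

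The 3 other breakdown genes passed the test, 1 higher and 2 lower, where 38.4% of all genes tested passed, and all 3 calls were lost with spike-in scaling. Smox, the spermine oxidase gene, had signals of 1354, 1347 and 1388 on the SC1 arrays, against 1042, 987.9 and 1057 on the DMSO arrays. It rose by 0.41 (SE 0.0443, adjusted p = 0.00106 by limma), and its second probe rose by 0.23. Paox, the oxidase of acetylated polyamines, had signals of 5910, 6088 and 6074 on the SC1 arrays, against 7801, 7279 and 7242 on the DMSO arrays, and fell by 0.30 (adjusted p = 0.00393). Sat2, a relative of Sat1, fell by 0.37 and by 0.50 on its 2 probes. Neither Smox nor Paox overlapped between the groups, which was also so for 52.1% of all genes tested. With spike-in scaling the log2 fold changes were 0.37 for Smox (adjusted p = 0.0914), -0.34 for Paox (0.117) and -0.41 for Sat2 (0.0558). With the slide section as a block Sat2 had a log2 fold change of -0.40, and its call was lost (adjusted p = 0.0552 by limma).

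Of 6 tested genes of arginine and ornithine supply 1 rose, 2 fell and 3 did not pass, where 38.4% of all genes tested passed. Aldh18a1, which makes the ornithine precursor pyrroline carboxylate from glutamate, rose by 0.45 (SE 0.0558, adjusted p = 0.00177). Its signals were 1356, 1225 and 1288 on the SC1 arrays, against 982, 911 and 941 on the DMSO arrays. Oat, the ornithine aminotransferase gene, fell by 0.38, and Asl, the argininosuccinate lyase gene, fell by 0.25. With spike-in scaling the log2 fold changes were 0.41 for Aldh18a1 (adjusted p = 0.0598), -0.42 for Oat (0.0512) and -0.29 for Asl (0.213). With the slide section as a block Asl had -0.23 and its call was lost (adjusted p = 0.0557).

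Of 7 tested genes of methionine supply and salvage 1 rose, 2 fell and 4 did not pass, where 38.4% of all genes tested passed. Mtap, whose enzyme recovers the methylthioadenosine left over by spermidine and spermine synthesis, had signals of 798, 734.6 and 764.3 on the SC1 arrays, against 1104, 1126 and 1146 on the DMSO arrays. It fell by 0.56 (SE 0.047, adjusted p = 0.000393 by limma), a 1.47-fold decrease that passed under all 19 alternatives (adjusted p up to 0.0172). Enoph1, a later enzyme of the same salvage route, rose by 0.45 (adjusted p = 0.00375), and with spike-in scaling it had 0.41 (adjusted p = 0.0632). Mat2a, which makes S-adenosylmethionine, fell by 0.19 on the brightest of its probes, and its other probe fell by 0.42. Its call on the brightest probe (adjusted p = 0.03) was lost under 12 of the 19 alternatives, among them quantile normalization, where the log2 fold change was -0.086 and the adjusted p was 0.177.

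Of 5 tested transport genes 1 rose, 1 fell and 3 did not pass, where 38.4% of all genes tested passed. Atp13a4, of a family of lysosomal and endosomal polyamine pumps, rose by 0.72 on a probe with 126.3, 114.8 and 109 on the SC1 arrays, against 78.74, 66.91 and 67.49 on the DMSO arrays. Its other probe, named by a different transcript, was above background on 1 of the 3 SC1 arrays and on all 3 DMSO arrays, had a log2 fold change of -0.24, of the opposite sign, and did not pass, and the mean of both probes did not pass either (adjusted p = 0.379). Slc18b1, a vesicular polyamine carrier gene, fell by 0.41 (SE 0.0701, adjusted p = 0.0059), and with the slide section as a block its adjusted p was 0.0527.

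Spermidine is also used to make hypusine, an amino acid found in the translation factor eIF5A. Of the 4 genes of this step 1 fell and 3 did not pass, where 38.4% of all genes tested passed. Dohh, the second enzyme, had a log2 fold change of -0.23 with an adjusted p of 0.0475, and this call was lost under 14 of the 19 alternatives. The log2 fold changes of the 4 genes ran from -0.23 to -0.014.

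**Figure D4:**
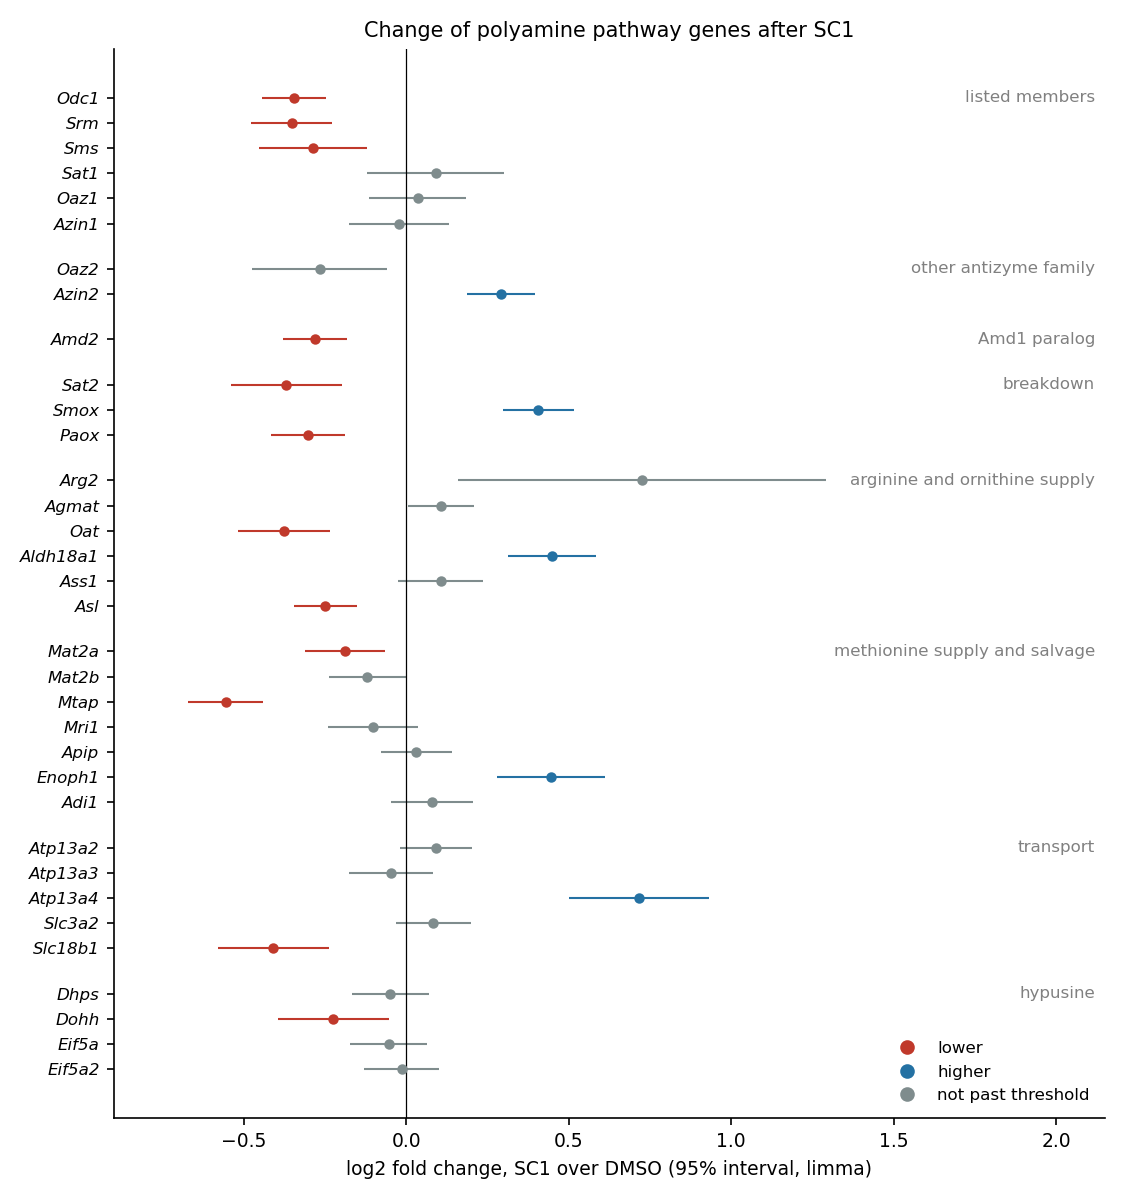
Log2 fold change, SC1 over DMSO, with its 95% interval from limma for each tested member (top) and each tested gene of the wider list by role, coloured by call. Odc1, Srm, Sms and Amd2 lie between -0.35 and -0.28, and the supply, salvage and breakdown groups hold genes on both sides of 0.

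The genes whose pattern over the 6 arrays was most like that of Odc1 were Utp11, a gene of ribosome assembly, Pkib, a protein kinase inhibitor gene, and Gemin5, a gene of small nuclear ribonucleoprotein assembly. Likeness was the root mean square difference of log2 values after each of 14729 genes with an official symbol was centred on its own mean. It was 0.0136 for Utp11, 0.0153 for Pkib and 0.0155 for Gemin5, and their log2 fold changes were -0.36, -0.35 and -0.35. With 2 groups of 3 arrays this measure mostly ranks genes with a change of the same size.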

How the data were processed

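Cy3-labelled RNA was put on arrays read in 1 colour, per the labels' protocols, and spots were quantified with Agilent Feature Extraction 10.7, per the submitters' processing notes. The deposited array files give for each spot a processed intensity, corrected for background, raw median intensities and 0 or 1 flags, per the file headers. A value matrix in log2 units, deposited by the authors, was an alternative; its making is not given in the sources used here, and each column had a median of 5.18. Groups were taken from the sample names, since the same treatment text stands on all 6 samples. The members and lists were chosen with earlier results of these data known. Nothing in the labels says that replicates were separate cultures, so the p-values cover only how these samples varied, possibly for technical reasons.

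Spots marked as outliers were left out, log2 processed intensities were averaged per probe and each array's 75th percentile was subtracted. A probe was kept if every array of either group flagged it as well above background (35288 probes), and the brightest probe stood for a gene. Accessions were named through a RefSeq table (GRCm38.p6); the array design is on another build, so no gene coordinates are given apart from those of the RefSeq promoter windows. SC1 was compared with DMSO in limma 3.58.1 (R 4.3.3), two-sided, with Benjamini-Hochberg adjustment over all genes, or over all probes where a probe is named. Differences within arrays used an exact permutation test. Named genes were the members, up to 3 passing genes per role of the wider list, Dusp6, Myc and the 3 genes most like Odc1. On simulated data with 25421 genes the fit found 13 of the 50 genes given a 1.25-fold change, 31 of 50 at 1.5-fold, 38 of 50 at 2-fold and 48 of 50 at 4-fold, with 7 false calls. The simulation changed no other genes, while 38.4% of genes were called in the data. Its adjustment was therefore stricter, and these rates do not carry over to the data. The number of arrays limits the precision. Same-numbered samples did not deviate together (correlations -0.0365 to -0.0133), so samples were not paired. Promoters were searched in Python 3.11.15, and plots made in matplotlib 3.10.9.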

Additional observations from a re-analysis of the deposited data

How the results depend on the processing

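The settings tried were other scalings (quantile, the median of detected probes, 8 spike-in probes), normexp background correction (offset 50) before either quantile or 75th percentile scaling, and the authors' log2 matrix. Others dropped the filter or required all 6 arrays to pass it, averaged the probes of a gene, or tested all probes. The last took the replicate number or the slide section as a block, kept to the shared section, or left out each array in turn. The within-section comparison and all alternatives of the probe counts were added after the data were seen. With spike-in scaling 5067 genes were called, 0 members and 2 member probes fell and 4 wider genes passed; the log2 fold changes were -0.39 for Odc1 (adjusted p = 0.0705), -0.39 for Srm (0.0633) and -0.33 for Sms (0.155). The difference between the spike-in and the 75th percentile scale had an SD of 0.176 on the log2 scale among SC1 arrays and 0.053 among DMSO arrays. With the slide section as a block 5542 genes were called and 5 member probes fell, and within the shared section 4902 genes were called, 3 member probes fell and 6 wider genes passed. Sms had -0.24 in both, which are the same estimate by construction, and did not pass. The cause was not tested. When 1 array was left out, 7747 to 8399 genes were called, 2 or 3 members and 6 to 8 member probes fell and 12 to 14 wider genes passed. Sms then ran from -0.32 to -0.23 and Sat1 from 0.035 to 0.18. With the replicate number as a block 7914 genes were called, and the same 3 members, Odc1, Srm and Sms, fell. Odc1 and Srm kept their call under 18 of 19 alternatives. Of the 3 within-array differences with Odc1, each kept its sign under the 12 alternatives run. Among these, scaling to the median of detected probes or to the spike-ins leaves the differences unchanged by construction.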
